A study of Mus musculus with 12 samples.

Results

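The transport machinery of the thick ascending limb was followed in mouse kidney through 5 genes, the cotransporter gene *Slc12a1*, the uromodulin gene *Umod*, the potassium channel gene *Kcnj1*, the chloride channel subunit gene *Bsnd* and the prostaglandin receptor gene *Ptger3*. They were taken by symbol from the 55401 gene identifiers in the tables of the 12 mice, and all 5 were among the 14159 genes with enough counts to be tested. Whole-kidney RNA-Seq compared 6 mice given vehicle with 6 mice given SK-124, a small-molecule inhibitor of the salt-inducible kinases SIK2 and SIK3. All animals were male C57BL6 mice, 8 weeks old, and each received 1 intraperitoneal injection, of 40 mg/kg SK-124 or of vehicle. For its kidney disease experiment the paper describes the vehicle of SK-124 as 15% hydroxypropyl beta-cyclodextrin in water. The vehicle of the mice used here was not described separately in the sources used. The time from injection to kidney collection for these libraries was not given in the sources used here, and each mouse gave 1 library.

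The thick ascending limb reabsorbs salt without water, which dilutes the tubular fluid and builds the concentration gradient of the medulla. Sodium, potassium and chloride enter its cells together from the lumen, potassium returns to the lumen through an apical channel, and chloride leaves toward the blood through channels that need the subunit barttin. The lumen-positive voltage that results drives calcium and magnesium between the cells through claudins, and prostaglandin E2, vasopressin and the calcium-sensing receptor adjust the rate of transport. Loss of the cotransporter, the potassium channel or barttin causes forms of Bartter syndrome, a salt-wasting disease.

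Total expected counts, the reads estimated for all genes of a library, lay between 19350134 and 19771802 in the vehicle mice and between 19244227 and 19530313 in the SK-124 mice. The 10 most abundant genes took 39.9% to 43.2% of the counts in the vehicle mice and 38.6% to 46.8% in the SK-124 mice. SK-124 mice 1 to 3 were above the highest vehicle mouse, and mice 4 to 6 were near or below the lowest vehicle mouse. *Cyp27b1*, which makes active vitamin D and is the readout the compound was studied for, had a mean of 5.46 CPM (counts scaled to library size and between libraries by TMM) with vehicle and 32.4 CPM with SK-124. *Cyp24a1*, which degrades vitamin D, had means of 77.5 and 15.4 CPM. The 5 genes of interest together took 0.237% to 0.363% of the counts with vehicle and 0.293% to 0.351% with SK-124. In vehicle mouse 3 *Slc12a1* and *Umod* were the lowest of the 12 mice, and the values of several results without this mouse are given beside them.

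*Bsnd* encodes barttin, the subunit that the kidney chloride channels need to reach the basolateral membrane. It lies at chr4:106483456-106492283 on the minus strand of GRCm38 (GENCODE M21), with no overlapping gene annotated. The lowest, median and highest levels were 54.7, 58.4 and 63.7 CPM in the vehicle mice and 21.3, 23.1 and 29.8 CPM in the SK-124 mice. Each SK-124 mouse was below every vehicle mouse, and the highest SK-124 level came from mouse 1. The mean level was 58.3 ± 3.14 CPM with vehicle and 24.1 ± 3.06 CPM with SK-124 (SD, n = 6 and n = 6), 2.42-fold lower with SK-124. The difference was -1.27 on the log2 scale (SE 0.07, 95% confidence interval -1.43 to -1.12, edgeR's quasi-likelihood FDR = 1.21e-09), where FDR is the p-value adjusted by Benjamini-Hochberg over all genes tested. The exact two-sided permutation test gave p = 0.00216, the smallest value that 6 against 6 mice allow. In TPM, the authors' values per gene length and library total, barttin transcripts averaged 21.1 ± 1.77 with vehicle and 7.85 ± 1.15 with SK-124 (SD, n = 6 and n = 6), again without overlap. In whole kidney, fewer cells of a type and less RNA per cell cannot be told apart, for *Bsnd* and for every gene described here. Nor do whole-kidney levels show which nephron segment or cell type a difference came from. Of the 14159 genes tested, 1.31% fell by more than 1 on the log2 scale at an FDR under 0.05, and *Bsnd* was the only one of the 5 genes to do so.

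*Ptger3* encodes EP3, a receptor for prostaglandin E2 that couples to Gi and lowers cyclic AMP, and in the thick ascending limb it restrains salt transport driven by vasopressin. The gene lies at chr3:157566892-157645888 on the plus strand, with no overlapping gene. Its lowest, median and highest levels were 26.9, 29.5 and 38.8 CPM in the vehicle mice and 39.6, 41.6 and 48.6 CPM in the SK-124 mice. The groups did not overlap, although the highest vehicle mouse came close to the lowest SK-124 mouse. The mean was 31.2 ± 4.75 CPM with vehicle and 42.5 ± 3.46 CPM with SK-124 (SD, n = 6 and n = 6), 1.36-fold higher with SK-124. The log2 fold change was 0.45 (SE 0.09, 95% confidence interval 0.26 to 0.63, edgeR FDR = 0.00108), and the exact permutation test gave p = 0.00216. In TPM the levels were 12.7 ± 2.09 and 15.8 ± 2.66 (SD, n = 6 and n = 6), the groups overlapped, and the exact permutation test gave p = 0.0519. On log2(TPM + 1), where the median gene stood at -0.11, the difference was 0.29 and its limma FDR was 0.0941, so the call did not hold on that scale. Relative to the median gene the difference was 0.40 on that scale.

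*Kcnj1* encodes ROMK, the apical potassium channel that returns potassium to the lumen and so keeps the cotransporter supplied, and it is also present in the collecting duct. It lies at chr9:32372493-32399197 on the plus strand with no overlapping gene. The lowest, median and highest levels were 127, 139 and 145 CPM with vehicle and 118, 126 and 137 CPM with SK-124. Of the 6 SK-124 mice, 3 were below every vehicle mouse and 3 were within the vehicle range. The difference was -0.12 on the log2 scale (SE 0.05, edgeR FDR = 0.122; exact permutation p = 0.0455), which did not pass the adjusted threshold of 0.05. In TPM the mean was 45.2 ± 2.85 with vehicle and 37.5 ± 4.59 with SK-124 (SD, n = 6 and n = 6), and 5 of the 6 SK-124 mice were below all vehicle mice. The scaling decided the call, since on log2(TPM + 1) the difference was -0.27 with a limma FDR of 0.0379, and relative to the median gene on that scale it was -0.16.

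*Slc12a1* encodes NKCC2, the apical cotransporter that is the target of loop diuretics. It lies at chr2:125152505-125230002 on the plus strand, and the antisense gene *Gm14002* that overlaps it had almost no counts. The lowest, median and highest levels were 566, 768 and 884 CPM with vehicle and 752, 823 and 865 CPM with SK-124, and all 6 SK-124 mice lay within the vehicle range. The vehicle mice were more spread, with mouse 3 the lowest and mouse 5 the highest. The log2 fold change of 0.16 (SE 0.09, 95% confidence interval -0.03 to 0.34, edgeR FDR = 0.211; exact permutation p = 0.113) did not pass the test, and without vehicle mouse 3 the log2 fold change was 0.09. In TPM the means were 158 ± 29.8 and 159 ± 14.2 (SD, n = 6 and n = 6).

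*Umod* encodes uromodulin, the most abundant protein of normal urine, which thick ascending limb cells shed from their apical membrane. It lies at chr7:119462711-119479282 on the minus strand, and its antisense neighbour *Gm44588* had almost no counts. The lowest, median and highest levels were 1593, 2024 and 2247 CPM with vehicle and 1955, 2335 and 2522 CPM with SK-124. Of the SK-124 mice, 5 of 6 were above every vehicle mouse and mouse 5 was within the vehicle range. The log2 fold change was 0.21 (SE 0.08, 95% confidence interval 0.03 to 0.39, edgeR FDR = 0.0879; exact permutation p = 0.0368), and it did not pass the adjusted threshold with all mice. Without SK-124 mouse 5 the edgeR FDR was 0.0380 at a log2 fold change of 0.25, and without vehicle mouse 3 the log2 fold change was 0.15. In TPM the means were 768 ± 117 and 796 ± 89.6 (SD, n = 6 and n = 6), and 5 of the 6 SK-124 mice were within the vehicle range.

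**Figure D1:**
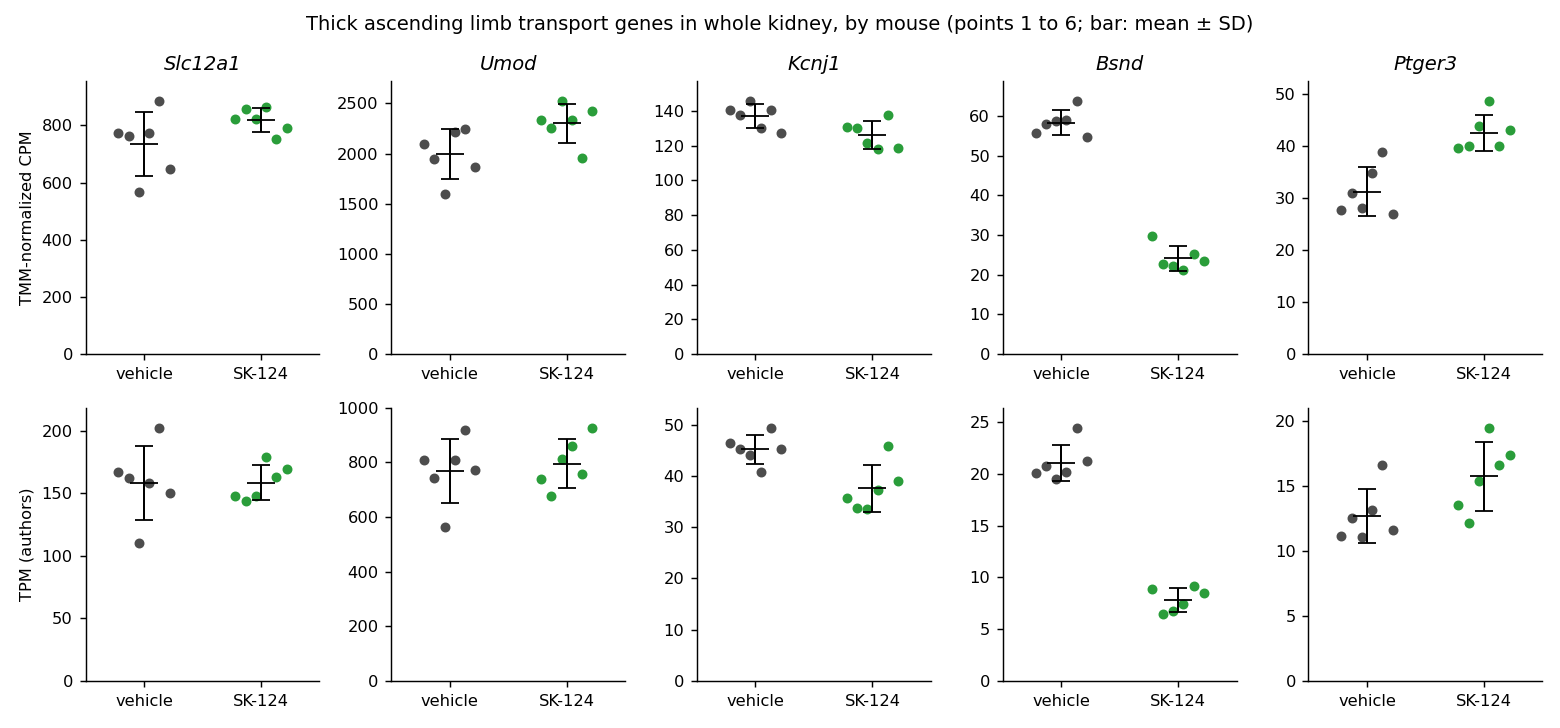
Levels of the 5 thick ascending limb genes in each mouse, as TMM-normalized CPM (upper row) and as the authors' TPM (lower row), with 1 point per mouse in the order 1 to 6 and bars for mean ± SD. *Bsnd* fell from 58.3 to 24.1 CPM without overlap, *Ptger3* was separated in CPM but overlapped in TPM, and the other 3 genes overlapped in both units.

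Promoter windows were read from RefSeq (build GRCm38.p6) for 4 of the 5 genes, *Slc12a1*, *Umod*, *Kcnj1* and *Ptger3*, and none was at hand for *Bsnd*. The windows run 250 bases before to 50 after each RefSeq start, and 2 are printed without annotated exon bases, because *Ptger3* passed the test and because *Kcnj1* held a match to a searched motif, marked by the capitals. In *Kcnj1* (chr9:32393735-32393984, plus strand) it is TGACG, the core of the cyclic AMP response element, at -81 from the RefSeq start. This *Kcnj1* window lies inside the GENCODE M21 span of the gene, downstream of the annotated gene start at 32372493. The *Ptger3* stretch (chr3:157566626-157566875, plus strand) held no match.
Kcnj1: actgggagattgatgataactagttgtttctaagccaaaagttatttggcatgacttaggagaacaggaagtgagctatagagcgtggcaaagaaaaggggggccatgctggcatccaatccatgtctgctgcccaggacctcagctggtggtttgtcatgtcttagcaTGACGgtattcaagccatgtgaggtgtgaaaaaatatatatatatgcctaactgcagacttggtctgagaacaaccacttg
Ptger3: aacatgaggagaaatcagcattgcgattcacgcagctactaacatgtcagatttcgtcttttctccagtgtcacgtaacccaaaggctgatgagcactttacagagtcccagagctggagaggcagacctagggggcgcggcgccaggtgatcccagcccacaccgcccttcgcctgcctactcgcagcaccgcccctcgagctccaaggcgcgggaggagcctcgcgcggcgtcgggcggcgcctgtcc

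Both strands of each window were searched for 3 motifs, and TGACG was present in 20.8% of 32851 promoter windows of the same length. The full cyclic AMP response element TGACGTCA, which contains TGACG and was in 1.79% of windows, and AAGGTCA, bound by estrogen-related receptors and in 4.72% of windows, were in none of the 4 genes' windows. The *Slc12a1* and *Umod* windows matched none of the 3 motifs. These matches are letters in a window and no binding was measured.

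Of the 5 genes, 1 was higher and 1 was lower at an edgeR FDR under 0.05. Of all genes tested 24.4% passed, 10.8% higher and 13.5% lower. The groups did not overlap in CPM for *Bsnd* and *Ptger3*, and of all genes 13.0% did not overlap, 6.32% higher and 6.65% lower with SK-124. The genes that did not pass, *Umod*, *Slc12a1* and *Kcnj1*, were the 3 with the highest TPM.

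The order of levels per gene length, which TPM gives, changed at its lower end. With vehicle the order was *Umod* (mean 768 TPM), *Slc12a1* (158), *Kcnj1* (45.2), *Bsnd* (21.1) and *Ptger3* (12.7), and with SK-124 *Ptger3* (15.8 TPM) stood above *Bsnd* (7.85 TPM). Every one of the 6 mice of each group had its group's order, and no neighbours in either order had overlapping ranges. The ratio of *Ptger3* to *Bsnd* TPM was 0.600 ± 0.0550 in the vehicle mice, from 0.547 to 0.680, and 2.03 ± 0.387 in the SK-124 mice, from 1.53 to 2.63 (SD, n = 6 and n = 6).

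**Figure D2:**
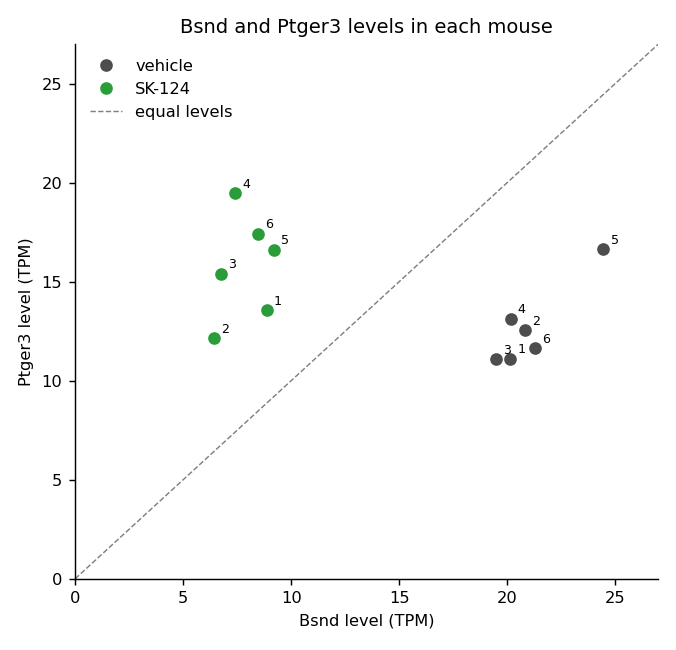
Level of *Ptger3* against the level of *Bsnd* in TPM, 1 point per mouse with its replicate number, and a dashed line where both levels are equal. All 6 vehicle mice lie below the line and all 6 SK-124 mice above it, with mean ratios of 0.600 and 2.03.

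A ratio of 2 genes in the same mouse does not depend on how libraries are scaled. The log2 ratios of the 10 pairs that the 5 genes form were compared between the groups by exact two-sided permutation tests, with p-values adjusted over the 10 pairs. *Bsnd* fell against each of the other genes, by 1.71 against *Ptger3*, and the log2 ratios of *Umod*, *Slc12a1* and *Kcnj1* to *Bsnd* were higher by 1.48, 1.43 and 1.14 (adjusted exact permutation p = 0.00433 for each of these 4 pairs, without overlap between the groups). The ratio of *Kcnj1* to *Ptger3* also separated the groups without overlap, with a log2 difference of -0.57 (adjusted exact permutation p = 0.00433).

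The shifts among the remaining pairs were smaller and the groups overlapped in each. The log2 ratio to *Ptger3* changed by -0.28 for *Slc12a1* and by -0.24 for *Umod* (adjusted exact permutation p = 0.0144 and 0.0216), so the EP3 receptor transcript was higher with SK-124 relative to each of the other 4 genes. The cotransporter and uromodulin transcripts were higher relative to *Kcnj1*, by 0.29 for *Slc12a1* and 0.33 for *Umod* (adjusted exact permutation p = 0.0289 and 0.0271). The call for *Slc12a1* against *Kcnj1* was lost without SK-124 mouse 2, 3, 4 or 6 (log2 differences 0.25 to 0.28), and that for *Umod* without mouse 3, 4 or 6 (0.29 to 0.31). Without vehicle mouse 3 these differences were 0.20 and 0.25. The log2 ratio of *Slc12a1* to *Umod* had means of -1.45 and -1.49 in vehicle and SK-124 mice and a difference of -0.04 (adjusted exact permutation p = 0.450).

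**Figure D3:**
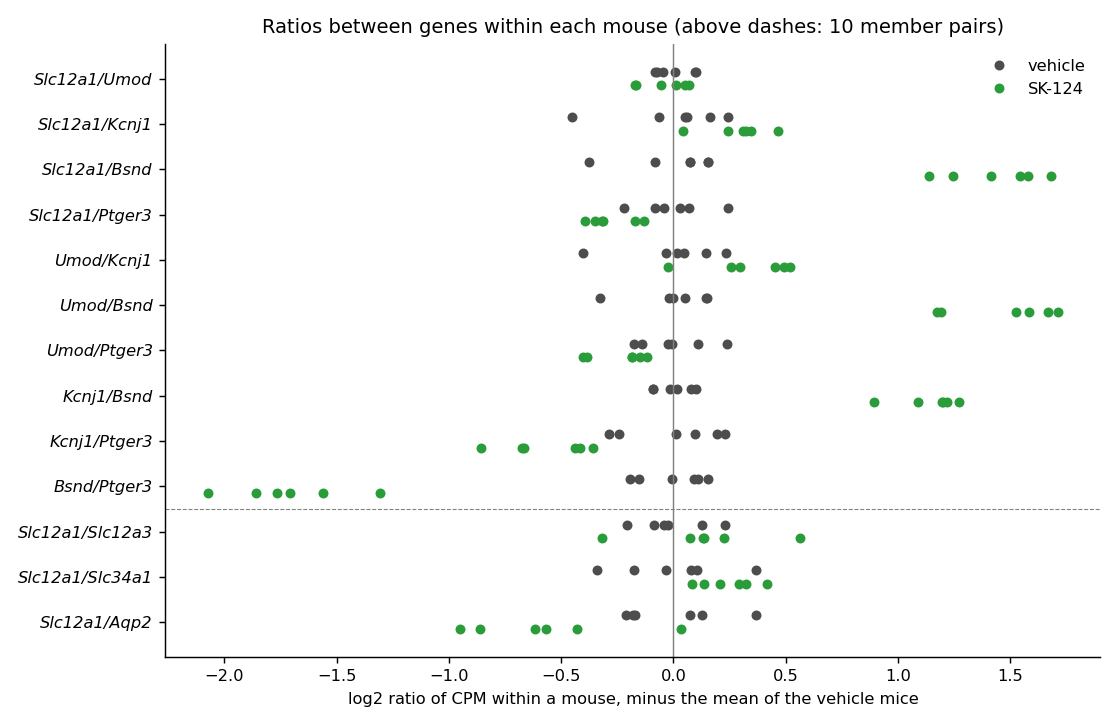
Log2 ratio of CPM between genes within each mouse, with the mean of the vehicle mice subtracted, for the 10 pairs of the 5 genes (above the dashed line) and for *Slc12a1* against 3 genes of other nephron segments (below it), 1 point per mouse. The 4 pairs that hold *Bsnd* separate the groups most widely, by 1.14 to 1.71 on the log2 scale. *Kcnj1*/*Ptger3* also separates them, and the groups overlap for the other 5 pairs and for all 3 ratios below the line.

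Set against transcripts of other nephron segments in the same mouse, the log2 ratio of *Slc12a1* to *Aqp2*, the water channel of principal cells, was 2.81 with vehicle and 2.24 with SK-124, a change of -0.57 (exact permutation p adjusted over 3 ratios = 0.0325). *Aqp2* itself was higher with SK-124, at a log2 fold change of 0.75 (edgeR FDR = 8.52e-04). The ratio to *Slc12a3*, the cotransporter of the distal convoluted tubule, changed by 0.14 (adjusted exact permutation p = 0.329), and that to *Slc34a1*, the proximal tubule phosphate transporter, changed by 0.24 (adjusted exact permutation p = 0.0844), or by 0.17 without vehicle mouse 3. The call against *Aqp2* was lost without vehicle mouse 1, 2 or 4 or SK-124 mouse 3, 4, 5 or 6 (log2 differences -0.56 to -0.49).

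Across the 12 mice, with each group's mean removed, *Slc12a1* and *Umod* varied together (Pearson r = 0.84, adjusted permutation p = 0.0209 over 10 pairs; Spearman rho = 0.77, adjusted permutation p = 0.105). Within the vehicle mice r was 0.94 and within the SK-124 mice it was 0.55. Without the 2 mice farthest from the median of *Slc12a1*, vehicle mice 3 and 5, r was 0.63, so the relation rested in part on these mice. No other pair of the 5 genes passed the adjusted permutation test in CPM. Pooling the groups can hide relations that differ between them. For *Bsnd* and *Ptger3* the pooled r was 0.01, with 0.89 within the vehicle mice and -0.70 within the SK-124 mice. Such values within a group rest on 6 mice and were not tested.

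Transcripts of 59 other genes that act with these 5 were grouped into 7 lists by role, and 55 of them were tested. Of the 55, 7 were higher and 11 were lower at an edgeR FDR under 0.05, against 10.8% and 13.5% of all genes. The median log2 fold change was -0.02 over the 55 and -0.01 over all genes tested.

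Among the salt transport partners, *Kcnj16*, a basolateral potassium channel subunit, had a log2 fold change of 0.18 (edgeR FDR = 0.0520) and *Atp1b1*, the beta subunit of the sodium pump, had 0.17 (edgeR FDR = 0.0539), so neither passed the test, although both passed with DESeq2. On log2(TPM + 1) the differences were only 0.02 for *Kcnj16* and 0.02 for *Atp1b1*, and the groups overlapped.

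The claudins, which form the paracellular pores and seals for cations, gave 2 higher and 1 lower of 5 tested. *Cldn19*, which pairs with claudin-16 in the magnesium and calcium pathway, had 33.4, 38.9 and 48.7 CPM as lowest, median and highest with vehicle and 18.1, 19.7 and 21.2 CPM with SK-124. Its groups did not overlap and it fell by 1.03 on the log2 scale (SE 0.08, edgeR FDR = 6.01e-08). In TPM the size was smaller, with *Cldn19* at 16.2 ± 2.39 with vehicle and 10.5 ± 1.47 with SK-124 (SD, n = 6 and n = 6), a difference of -0.58 on log2(TPM + 1), and the groups again did not overlap. *Cldn16* rose from 4.92 ± 0.523 to 6.98 ± 0.743 CPM (SD, n = 6 and n = 6), a log2 fold change of 0.50 (edgeR FDR = 8.80e-04), which on log2(TPM + 1) was 0.28 with a limma FDR of 0.0536. *Cldn14*, which blocks that pathway and is known to be induced through the calcium-sensing receptor, had between 0 and 2 expected counts per vehicle mouse and 10 to 41 per SK-124 mouse. All 6 SK-124 mice were above all vehicle mice for *Cldn14* (edgeR FDR = 3.82e-06), and no fold is given against so few counts.

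Among hormone and calcium receptor genes and the adenylyl cyclase gene *Adcy6*, 6 genes were tested. Of these, 4 were lower and none higher, against 13.5% lower and 10.8% higher of all genes tested. Their median log2 fold change was -0.49. *Pth1r*, the parathyroid hormone receptor, and *Adcy6* had log2 fold changes of -0.12 and 0.04 (edgeR FDR = 0.168 and 0.745) and did not pass. *Avpr2*, the vasopressin V2 receptor that raises cyclic AMP in this segment, had 7.16, 8.72 and 10.1 CPM as lowest, median and highest with vehicle and 3.21, 3.90 and 4.31 CPM with SK-124. It fell by 1.17 on the log2 scale (SE 0.11, edgeR FDR = 4.96e-07) without overlap. Its locus overlaps *L1cam* and *Arhgap4* on the other strand, with mean expected counts of 750 and 84.5, against 123 for *Avpr2*. *Arhgap4* was also lower (log2 fold change -0.44, edgeR FDR = 0.00248), and the change of the more abundant *L1cam* is not reported here. The use of strand in counting was not given, which leaves the *Avpr2* counts uncertain.

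*Casr*, the calcium-sensing receptor, had 25.7, 50.6 and 54.3 CPM as lowest, median and highest with vehicle and 22.7, 29.1 and 35.2 CPM with SK-124. The lowest vehicle level was that of mouse 3, which fell among the SK-124 mice, while the other 5 vehicle mice were above all SK-124 mice. The log2 fold change was -0.70 (SE 0.14, edgeR FDR = 0.00161) with this mouse and -0.82 without it. *Gcgr*, the glucagon receptor, and *Adrb1*, the beta-1 adrenergic receptor, had log2 fold changes of -0.36 and -0.61 (edgeR FDR = 4.24e-04 and 0.0153). The call of *Adrb1* was lost with either set of 3 SK-124 mice. Its difference was -0.25 on log2(TPM + 1), where the added 1 exceeds its means of 0.648 and 0.38 TPM with vehicle and SK-124. The added 1 shrinks differences at such levels, so this value is not comparable in size with that in CPM.

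Prostaglandin E2 genes besides *Ptger3* gave 2 lower and none higher of 9 tested. *Ptger1*, the EP1 receptor, had 16.2 ± 3.69 CPM with vehicle and 6.62 ± 2.24 CPM with SK-124 (SD, n = 6 and n = 6), and fell by 1.29 on the log2 scale (edgeR FDR = 7.91e-05) without overlap. The use of strand in counting was not given, which leaves the *Ptger1* counts uncertain. *Hpgd*, which inactivates prostaglandins, fell by 0.86 on the log2 scale (edgeR FDR = 1.54e-04), and *Ptger4*, the EP4 receptor, had 0.42 (edgeR FDR = 0.0581), which passed with DESeq2. The *Ptger4* difference was 0.12 on log2(TPM + 1), and its groups overlapped. Its means were 0.748 TPM with vehicle and 0.907 TPM with SK-124, levels at which the added 1 shrinks differences. *Ptgs2* and *Ptger2* had too few counts to be tested.

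The kinases and trafficking factors that control NKCC2 gave 1 higher and 1 lower of 11 tested. *Wnk4*, a kinase that acts through SPAK on sodium chloride cotransporters, fell by 0.55 on the log2 scale (edgeR FDR = 2.02e-05), from 113 ± 6.61 to 76.9 ± 8.93 CPM (SD, n = 6 and n = 6). *Wnk1*, its relative, rose by 0.37 (edgeR FDR = 0.00470), or 0.29 without vehicle mouse 3, and did not pass with plain library totals or in TPM. Of 5 genes of uromodulin processing 1 rose, the serine protease gene *Tmprss2*, from 84.6 ± 6.92 to 136 ± 11.5 CPM (SD, n = 6 and n = 6; log2 fold change 0.68, edgeR FDR = 9.39e-07). *Hpn*, the protease hepsin that releases uromodulin from the membrane, had 0.14 (edgeR FDR = 0.0528), which passed with DESeq2 and turned to -0.01 in TPM.

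Of 10 transcription factors of the segment, 2 were higher and 3 were lower. *Esrrb*, an orphan nuclear receptor, rose from between 19.8 and 24.2 CPM in the vehicle mice to between 44.3 and 55.9 CPM in the SK-124 mice, a log2 fold change of 1.15 (SE 0.07, edgeR FDR = 1.21e-09). *Irx2* had 0.39, *Tfap2b* -0.39 and *Pou3f3* -0.33 on the log2 scale (edgeR FDR = 0.00315, 0.00418 and 0.00121), and the calls of *Irx2* and *Tfap2b* were lost in TPM, that of *Irx2* also with plain library totals.

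**Figure D4:**
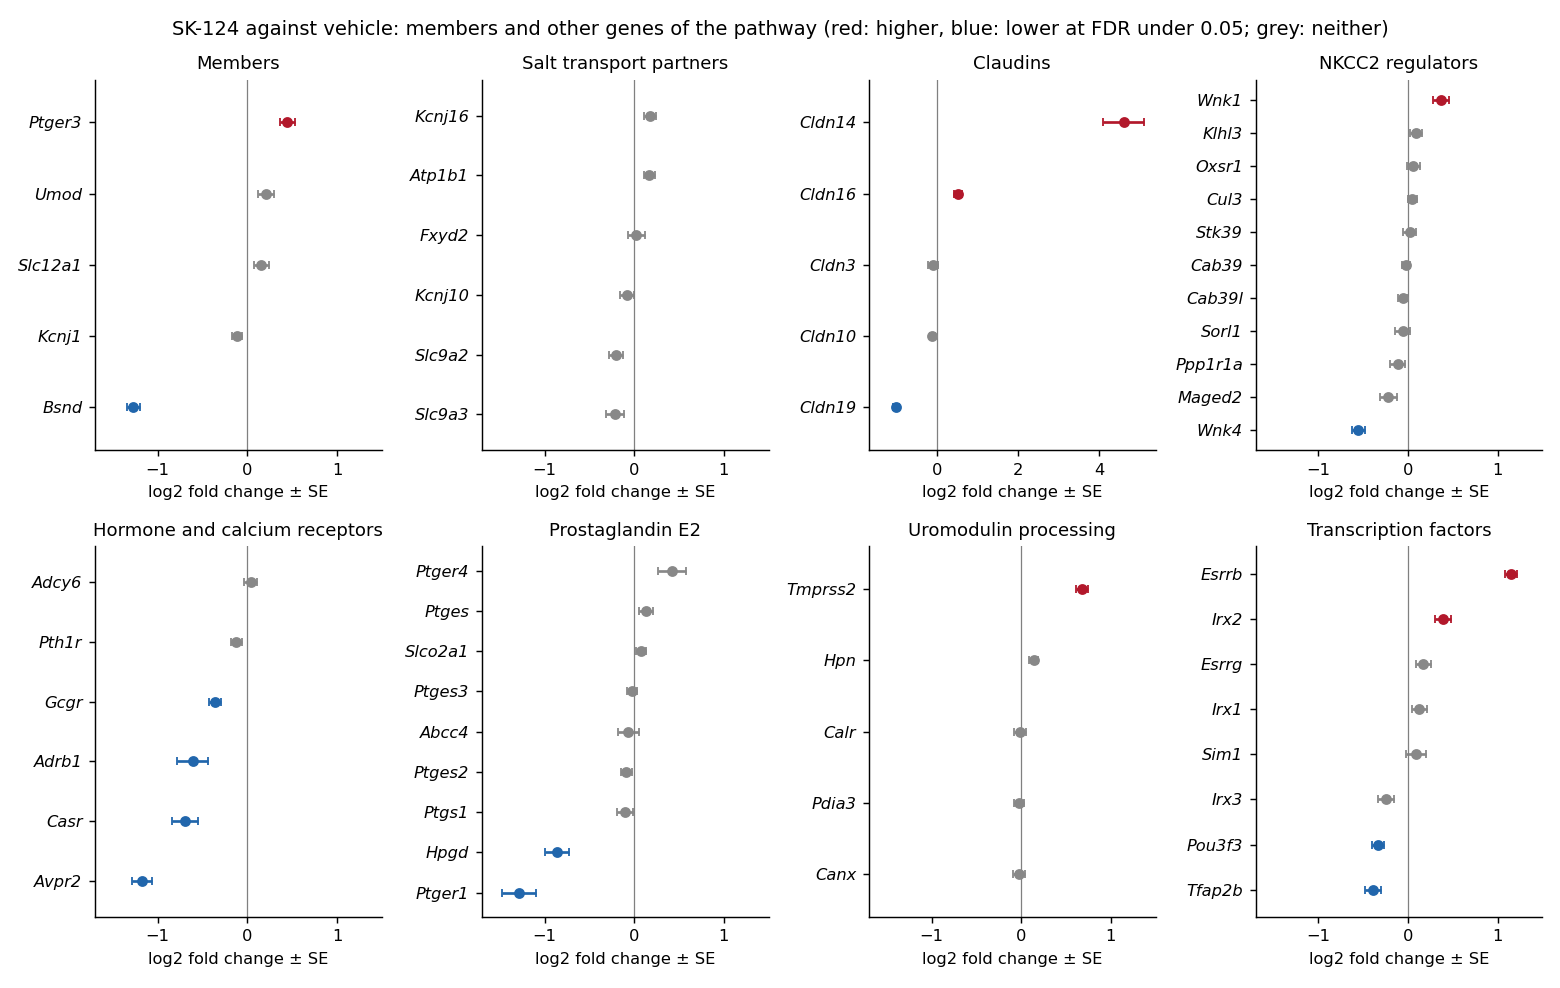
Log2 fold change of SK-124 against vehicle, with its standard error, for the 5 thick ascending limb genes (panel Members) and tested genes of 7 lists by role, over 6 and 6 mice. The claudin panel has a wider axis, because *Cldn14* had 0 to 2 counts with vehicle and its fitted value depends on a small added count. *Cldn19*, *Avpr2* and *Ptger1* were lower by more than 1 on the log2 scale and *Esrrb* was higher by 1.15. Some tested genes are not drawn.

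**Figure D5:**
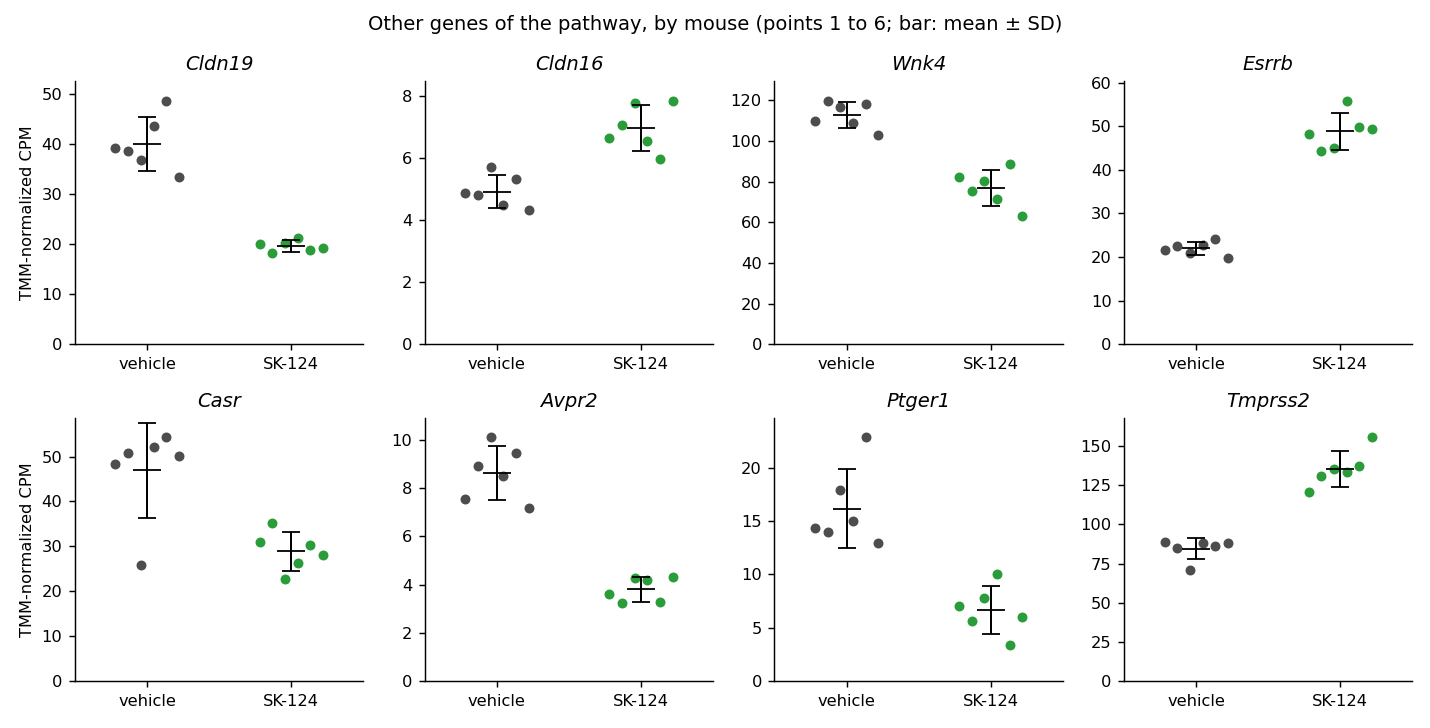
TMM-normalized CPM of 8 of these other genes in each mouse, 1 point per mouse with bars for mean ± SD. *Cldn19*, *Wnk4*, *Avpr2* and *Ptger1* fell without overlap, *Cldn16*, *Esrrb* and *Tmprss2* rose without overlap, and for *Casr* vehicle mouse 3 lay at 25.7 CPM among the SK-124 mice.

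Markers of the segment were present in every mouse. Of 10 thick ascending limb markers outside the 5 genes, 2 were higher (*Cldn16* and *Kng2*) and 2 were lower (*Cldn19* and *Casr*), with a median log2 fold change of -0.01. The calls of *Kng2* and *Cldn16* were lost in TPM, that of *Kng2* also with plain library totals and without vehicle mouse 6 or SK-124 mouse 3. The summed level of the 10 markers was 749 to 876 TPM with vehicle and 608 to 797 TPM with SK-124, and the groups overlapped. The summed level of 10 proximal tubule markers was 3019 to 3677 TPM with vehicle and 2495 to 3151 TPM with SK-124, and 1 of the 10 was lower. The summed levels also overlapped for distal convoluted tubule, principal cell, intercalated cell, inner medulla, macula densa, podocyte, endothelial and immune markers. The genes of these 8 lists that passed included *Sgms2*, *Aqp2*, *Slc26a4*, *Foxi1* and *Bdkrb2* higher and *Hsd11b2*, *Slc4a1*, *Epha7* and *Kdr* lower. The calls of *Slc26a4* and *Foxi1* were lost with plain library totals and in TPM, that of *Foxi1* also without SK-124 mouse 1, 5 or 6, and that of *Epha7* was lost in TPM, with DESeq2 and without any of several single mice. The part of other cell types in the differences of the 5 genes was not tested.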

How the data were processed

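Whole-kidney RNA-Seq libraries of 12 mice were grouped by the treatment in the labels. The submitters' processing notes name FastQC, STAR 2.7.2b, RSEM 1.3.0, DESeq2 and mm10; the annotation and the use of strand were not given in the sources used here. The authors deposited expected counts per gene, which RSEM estimated and which are not normalized. TPM values were deposited by the authors in the same tables, scaled to effective gene length and library total; FPKM was not used. Of 55401 identifiers 54349 matched GENCODE M21 with their version.

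Expected counts were rounded, filtered with filterByExpr, scaled by TMM and tested over 14159 genes in edgeR by quasi-likelihood, with treatment as the only term (edgeR 4.0.16, limma 3.58.1, DESeq2 1.42.0, R 4.3.3). FDR is the Benjamini-Hochberg adjusted p. Single values and log2 ratios (pseudocount 0.5 CPM) were compared with two-sided exact permutation tests, and correlations with 100000 permutations (Python 3.11.15, scipy 1.17.1). The scripts were tested on simulated counts. Counts of any 2 mice of a group differed by at least 4.69 in chi-square divided by its degrees of freedom, so no library looked like a copy. Depth of about equal size in all mice limits mainly genes with few counts.

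The 5 genes and all lists were chosen with earlier results of these data known. The text names the 5 genes, genes of the lists with an FDR under 0.05 and at least the 2 smallest p-values of a list, and for likeness the 3 most correlated genes; genes on the other strand were named after their values were seen. Some genes that this rule names are not reported here. Alternatives were other size factors, library totals, DESeq2, other filters, unrounded counts, limma on TPM (pseudocounts 1 and 0.1), a replicate block, SK-124 mice 1 to 3 or 4 to 6 only, and leaving out each mouse.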

Additional observations from a re-analysis of the deposited data

Results flagged for a closer look

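Of 72 group values checked for a mouse far from the other 5 of its group, 4 stood out, where about 1 in 20 does so by chance (3.6 of 72). All 4 came from vehicle mouse 3. Its *Wnk1* level was 239 CPM against 318 to 361 CPM in the other vehicle mice, its *Casr* level was 25.7 CPM against 48.3 to 54.3 CPM, and its *Tmprss2* level was 70.8 CPM against 85.1 to 89.1 CPM. Its log2 ratio of *Umod* to *Bsnd* was 4.75 against 5.06 to 5.23. Without this mouse *Wnk1*, *Casr* and *Tmprss2* had log2 fold changes of 0.29, -0.82 and 0.63, and each still passed the edgeR test.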

How the results depend on the processing

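*Bsnd* passed the test under all 24 settings, with log2 fold changes from -1.42 to -1.22, and no call named in the comparisons changed sign, while *Hpn*, which was not called, turned from 0.14 to -0.01 in TPM. Plain library totals and TPM moved the median gene to -0.12 and to -0.11 or -0.14 (pseudocounts 1 and 0.1), against -0.01 with TMM. *Kcnj1* then passed, with -0.23 with library totals (edgeR FDR = 0.0130) and -0.27 and -0.27 in TPM, and *Ptger3* did not pass in TPM with 0.29 and 0.31. Relative to the median gene, *Ptger3* stood at 0.40 and 0.45 in TPM. Genes higher with SK-124 were 777 and lower 3058 with library totals, against 1536 and 1917 with TMM. Of the 55 other genes of the pathway, those higher numbered 4 and those lower 18 with library totals, 11 were higher with DESeq2, and 3 were higher in TPM with either pseudocount (the TPM counts were chosen after seeing the data). In log2(TPM + 1) the correlations of *Slc12a1* with *Ptger3*, *Umod* with *Ptger3* and *Kcnj1* with *Bsnd* passed, with r of 0.73, 0.73 and 0.75. The cause of these changes was not tested beyond the shift of the median gene.

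With SK-124 mice 1 to 3 only, 2298 genes changed and the log2 ratios *Slc12a1*/*Kcnj1* (0.30), *Slc12a1*/*Ptger3* (-0.21), *Umod*/*Kcnj1* (0.36), *Umod*/*Ptger3* (-0.15) and *Slc12a1*/*Aqp2* (-0.42) no longer passed. With SK-124 mice 4 to 6 only, *Slc12a1*/*Kcnj1* (0.28), *Umod*/*Kcnj1* (0.31) and *Umod*/*Ptger3* (-0.32) no longer passed; both settings have fewer mice. Leaving out each mouse in turn gave 0.20 to 0.34 for *Slc12a1*/*Kcnj1*, 0.25 to 0.40 for *Umod*/*Kcnj1*, -0.68 to -0.49 for *Slc12a1*/*Aqp2*, 0.17 to 0.32 for *Slc12a1*/*Slc34a1* (which passed without vehicle mouse 5) and 0.15 to 0.25 for *Umod* (which passed without SK-124 mouse 5).

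The replicate numbers belong to different mice, and same-numbered mice deviated from their group means with correlations from -0.13 to 0.22. These few correlations cannot tell whether same-numbered mice shared a batch, and no pairing was given in the sources used here. With the replicate block *Bsnd* had -1.28 and *Ptger3* 0.45, both past the threshold, and 3466 genes changed against 3453. As 6 pairs, the ratios cannot go below an unadjusted p of 0.0312 in the exact sign-flip test, so the adjusted p was 0.0521 for *Slc12a1*/*Bsnd* (1.43), *Slc12a1*/*Ptger3* (-0.28), *Umod*/*Bsnd* (1.48), *Kcnj1*/*Bsnd* (1.14), *Kcnj1*/*Ptger3* (-0.57) and *Bsnd*/*Ptger3* (-1.71), 0.104 for *Slc12a1*/*Kcnj1* (0.29), 0.0781 for *Umod*/*Kcnj1* (0.33) and *Umod*/*Ptger3* (-0.24), and 0.0938 for *Slc12a1*/*Aqp2* (-0.57).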

Other observations

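The 3 genes, of 9885 averaging 5 CPM or more, whose levels, with each group's mean removed, followed those of each gene most closely over the 12 mice are given as a description. For *Slc12a1* they were *Rap1gap2* (r = 0.95), *Irs2* (0.93) and *Stk35* (0.92). For *Umod* they were *Dab1* (r = 0.89), *Chd6* (0.88) and *Parm1* (0.87). For *Kcnj1* they were *Uroc1* (r = 0.87), *Slc10a2* (0.85) and *Pdxk* (0.84). For *Bsnd* they included *Tmem136* (r = 0.95) and *Abhd6* (0.88), and for *Ptger3* they included *Setd5* (r = 0.91) and *Cldn19* (0.90). *Cldn19* thus followed *Ptger3* among mice of a group, although between the groups *Ptger3* rose and *Cldn19* fell. All points share the libraries and their scaling, and the genes were the highest of many compared.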
